A study of Homo sapiens with 8 samples.

Results

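The classical enzymes that remove superoxide and hydrogen peroxide were followed in human colorectal cancer cells depleted of the peroxidase PrxII, the product of PRDX2. The set comprised 10 of the 25192 genes quantified, chosen by name: catalase (CAT), the superoxide dismutases SOD1 and SOD2, the glutathione peroxidases GPX1, GPX2, GPX3, GPX4, GPX7 and GPX8, and glutathione reductase (GSR). Messenger RNA was sequenced from 8 libraries, 2 each for HT29 and SW480 cells given control siRNA or PRDX2 siRNA (PrxII siRNA) for 36 h. HT29 and SW480 are human colorectal adenocarcinoma lines that both carry truncated APC. HT29 cells were grown in McCoy's 5A medium and SW480 cells in an RPMI medium, both with fetal bovine serum, so the line and its medium cannot be told apart. The paper's sequencing methods describe only the HT29 samples. The sources used here do not say that both lines were prepared or sequenced together. Any such difference cannot be told apart from the line either. The experiments were done in duplicate, and the sources used here do not say that the duplicates were separate transfections. The p-values therefore measure only the spread between these libraries, which may be technical.

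Superoxide dismutases convert superoxide to hydrogen peroxide, SOD1 in the cytosol with copper and zinc and SOD2 in the mitochondrial matrix with manganese. Hydrogen peroxide is then removed by catalase in peroxisomes, by peroxiredoxins such as PrxII and by glutathione peroxidases. The latter oxidise glutathione, which GSR returns to its reduced form with NADPH. GPX1 is the widely expressed cytosolic form, GPX2 is the form typical of the gut epithelium, GPX3 is secreted, GPX4 reduces lipid peroxides in membranes, and GPX7 and GPX8 belong to the endoplasmic reticulum.

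The 6 glutathione peroxidase genes fall into 2 kinds at the codon of the catalytic residue, so the coding sequence around it is shown for each. In the GENCODE annotation of GRCh37, GPX1 to GPX4 have an in-frame TGA there that is read as selenocysteine, and the aligned codon of GPX7 and GPX8 is TGC, for cysteine. The capitals mark that codon within 27 bases of the coding strand, 5′ to 3′.
GPX1: gtggcgtccctcTGAggcaccacggtc
GPX2: gtggcttcgctcTGAggcacaaccacc
GPX3: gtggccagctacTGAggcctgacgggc
GPX4: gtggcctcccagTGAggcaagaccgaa
GPX7: gtggccagcgagTGCggcttcacagac
GPX8: gtggccagtgacTGCcaactcacagac
The codon is number 49 of the GPX1 reading frame (chr3:49395565-49395567, minus strand), 40 of GPX2 (chr14:65409325-65409327, minus strand), 73 of GPX3 (chr5:150405030-150405032, plus strand) and 73 of GPX4 (chr19:1105402-1105404, plus strand). It is number 57 of GPX7 (chr1:53072386-53072388, plus strand) and 79 of GPX8 (chr5:54456852-54456854, plus strand). In GPX7 and GPX8 it was placed by the closest match of the surrounding codons to the other members.

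The antioxidant response element, the site of the transcription factor NRF2, was searched as TGACNNNGC on both strands of the RefSeq promoters (GRCh38.p14), which run from 250 bases before to 50 bases after each start. Of 35116 promoters, 13.3% held it. SOD1 and GSR had no entry and were not searched. Among the 8 members with an entry, GPX2 was the only one with a match. With 13.3% of all promoters holding the motif, a match in GPX2 alone among these 8 is no excess over the background. The GPX2 window is shown because the GPX2 response also differed between the lines, but a link between the motif and that response was not tested. The capitals mark the motif, which reads on the opposite strand of the sequence printed, 122 bases before the start (chr14:64942851-64942875 of GRCh38.p14, minus strand).
GPX2 promoter: ctgtttttGCTAAGTCAtcctgggg
No match was present in the windows of CAT, SOD2, GPX1, GPX3, GPX4, GPX7 and GPX8. A match is a description of the letters, and binding was not measured.

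On GRCh37, CAT lies at chr11:34460481-34493607 and SOD1 at chr21:33031979-33041244, both on the plus strand. SOD2 lies on the minus strand at chr6:160090101-160183561 and overlaps WTAP and ACAT2 on the other strand. GPX1 (chr3:49394607-49396038) and GPX2 (chr14:65405870-65409464) are on the minus strand, and GPX2 overlaps CHURC1 on the other strand. GPX3 (chr5:150400152-150408549), GPX4 (chr19:1103981-1106790), GPX7 (chr1:53068043-53074723) and GPX8 (chr5:54455995-54463125) are on the plus strand, and GPX8 overlaps CDC20B on the other strand. The library kit is not one that marks strand, so reads of SOD2, GPX2 and GPX8 cannot be told apart from reads of their partners wherever exons overlap.

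The expected counts, which are the reads that RSEM assigned to each gene, came to totals of 8857442 to 10164137 per library. PRDX2 itself was at 331 and 343 TPM (RSEM's unit of level, scaled by transcript length and library total) in the HT29 control libraries and at 193 and 194 TPM with PrxII siRNA. In SW480 cells it was at 482 and 560 TPM in the controls and at 169 and 172 TPM with PrxII siRNA. Its log2 fold change was -0.87 ± 0.05 (SE) in HT29 cells (Benjamini-Hochberg adjusted p = 1.15e-09 by the quasi-likelihood test of edgeR) and -1.70 ± 0.12 in SW480 cells (adjusted p = 0.000618 by the same test), so both lines showed the labelled knockdown in 2 of 2 libraries. The SW480 control duplicates stood apart from each other. The chi-square of their counts was 10.64 for each degree of freedom, against 1.42 to 2.08 for the other 3 pairs of duplicates, and their log ratio followed transcript GC content (Spearman's rho = 0.73 across genes, against 0.13 to 0.21 for the other pairs). GC-rich transcripts were higher in control replicate 2. All 11 colorectal epithelial markers examined had at least 10 counts in every HT29 library, while 7 of 11 did in SW480 cells, where CDX1, CEACAM5 and LGALS4 stayed under 10 counts. Of 6 fibroblast markers 1 had 10 counts in every HT29 library and 2 in every SW480 library (summed level at most 12.35 TPM). COL3A1 and DCN were under 10 counts throughout. Of 6 markers of blood and endothelium 1 did in HT29 cells (CD68) and 2 did in SW480 cells (CD68 and VWF). The summed level of those 6 was at most 28.39 TPM, and PTPRC and HBB were at 0.

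In control HT29 cells, GPX2 was the most abundant of the 10 transcripts. It stood at 915 and 958 TPM, above GPX4 at 601 and 609 TPM and GPX1 at 288 and 291 TPM. SOD1 was at 263 and 256 TPM and CAT at 114 and 111 TPM. GPX3 and SOD2 overlapped between the libraries, at 70.1 and 86.6 TPM for GPX3 and 71.0 and 64.2 TPM for SOD2. GSR was at 56.0 and 56.8 TPM, and GPX8 was low at 4.92 and 4.51 TPM. GPX7 had no count in any of the 4 HT29 libraries, which allows up to 3 counts per library (0.295 to 0.318 CPM, counts scaled by library total), a limit that covers counting error only.

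In control SW480 cells, SOD1 led at 746 and 725 TPM. GPX4 followed at 435 and 556 TPM and GPX1 at 425 and 560 TPM, and these 2 overlapped each other. SOD2 was at 105 and 116 TPM, GPX2 at 79.0 and 78.5 TPM, CAT at 56.2 and 58.0 TPM and GSR at 52.1 and 55.0 TPM, each below the one before in both libraries. GPX3 (25.8 and 34.5 TPM) and GPX8 (32.9 and 25.0 TPM) overlapped. GPX7 was lowest at 8.84 and 8.07 TPM. With PrxII siRNA, the order in HT29 cells placed GPX3 above SOD2 without overlap, and in SW480 cells GPX1 moved next to SOD1 and overlapped it. Deposited FPKM values ordered the 10 genes alike in all 8 libraries. That order was fixed in advance and is no separate check, because FPKM and TPM differ by a constant factor within each library.

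The first comparison set the lines against each other with control siRNA. Of the 10 genes, 9 differed at an adjusted p under 0.05, against 67.5% of the 14346 genes tested (31.8% higher and 35.7% lower in HT29 cells), so a difference between the lines was common among all genes. The median log2 difference of the 10 (HT29 over SW480) was -0.19, and that of all genes tested was -0.04. In bulk RNA a smaller share of expressing cells and less RNA per cell cannot be told apart. GPX2 was 13.0-fold higher in HT29 cells (log2 difference 3.70 ± 0.11, SE, n = 2 per line, adjusted p = 4.72e-08; every adjusted p here comes from edgeR unless another tool is named). The secreted GPX3 was 2.83-fold higher (adjusted p = 9.51e-05) and the peroxisomal CAT 2.15-fold higher (adjusted p = 2.93e-05) in HT29 cells. GPX4 was 1.34-fold higher (adjusted p = 0.0203), but not on TPM with limma (adjusted p = 0.0918) or without HT29 control replicate 1 or 2 (adjusted p = 0.103 and 0.12). Its log2 difference was 0.42 ± 0.13, and 0.16 without SW480 control replicate 1.

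The other 5 were higher in SW480 cells. GPX8 was 5.61-fold higher (log2 difference -2.49 ± 0.18, HT29 over SW480, adjusted p = 4.96e-06) and SOD1 2.59-fold higher (adjusted p = 4.57e-06). GPX1 was 1.56-fold higher (adjusted p = 0.00341) and SOD2 1.51-fold higher (adjusted p = 0.00227, and 0.122 without HT29 control replicate 2). The GPX1 log2 difference (HT29 over SW480) was -0.64 ± 0.14. It was -0.91 without SW480 control replicate 1 and -0.49 without SW480 control replicate 2. GPX7, at 4.47 CPM on average in the SW480 controls and 0 in HT29 cells, was at least 14.4-fold higher against a floor of 3 counts per library. GSR had a log2 difference of 0.20 ± 0.11 (adjusted p = 0.13). GPX7 and GPX8, the pair with a TGC codon, were both higher in SW480 cells, while the 4 selenocysteine genes were split, with GPX2, GPX3 and GPX4 higher in HT29 cells and GPX1 higher in SW480 cells.

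Shares within each family were computed from TPM. GPX2 made up 48.9% ± 0.32 (SD, n = 2) of the summed GPX level in control HT29 cells, and 7.04% ± 1.15 in control SW480 cells. GPX1 made up 15.1% ± 0.26 and 43.3% ± 1.53, and GPX4 31.6% ± 0.53 and 43.6% ± 0.57, in the same order. The summed GPX level was 1879 and 1949 TPM in the HT29 controls and 1007 and 1262 TPM in the SW480 controls, with no overlap. The summed level of SOD1 and SOD2 was 334 and 320 TPM against 851 and 841 TPM, higher in the SW480 controls. The 10 genes together held 0.238% and 0.244% of all TPM in the HT29 controls and 0.197% and 0.222% in the SW480 controls.

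The comparison of PrxII siRNA with control siRNA asks how these enzymes stood when another peroxidase was depleted. In HT29 cells GPX2 fell and GPX3 and GPX8 rose. These were 3 of the 9 members tested, against 17.6% of the 12961 genes tested (7.76% higher and 9.82% lower), where 2 of the members were higher and 1 was lower. The median log2 fold change was 0.05 over the 9 members and 0.00 over all genes tested. Among all genes called, 44.1% were higher with PrxII siRNA, and 69.6% of those called by limma on TPM were.

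GPX2 was at 915 and 958 TPM in the HT29 controls and at 824 and 830 TPM with PrxII siRNA. Both depleted libraries lay below both controls. The log2 fold change was -0.24 ± 0.03 (SE, adjusted p = 1.8e-05), and it lay between -0.28 and -0.21 when single libraries were left out. The GPX2 share of the GPX level was 48.9% ± 0.32 before and 45.0% ± 0.20 (SD, n = 2) after depletion.

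GPX3 was at 70.1 and 86.6 TPM in the HT29 controls and at 103 and 101 TPM with PrxII siRNA. The groups did not overlap, although the controls lay further apart than the depleted libraries. Its log2 fold change was 0.32 ± 0.07 (adjusted p = 0.00641), and 0.17 (adjusted p = 0.101) without control replicate 1. GPX8 was at 4.92 and 4.51 TPM (83 and 75 expected counts) in the controls and at 7.32 and 6.58 TPM (124 and 104 expected counts) with PrxII siRNA. Both depleted libraries were higher, and the log2 fold change was 0.50 ± 0.15 (adjusted p = 0.0271). GPX8 did not pass with DESeq2, which gave it no adjusted p (unadjusted p = 0.05885). The adjusted p for GPX8 was 0.137 without control replicate 2 and 0.139 without PrxII siRNA replicate 1. In a fit of all 8 libraries, which shares 1 estimate of the spread, none of the 3 passed (adjusted p = 0.12 for GPX2, 0.305 for GPX3 and 0.246 for GPX8). The edgeR estimate of the common biological coefficient of variation was 0.0249 in the HT29 libraries and 0.0723 over all 8.

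The remaining HT29 members did not pass the test. CAT was at 114 and 111 TPM in the controls and at 130 and 125 TPM with PrxII siRNA, a log2 fold change of 0.12 ± 0.05 (adjusted p = 0.0935). The CAT groups did not overlap in TPM. On log2(TPM + 1) with limma the CAT value was 0.18 (adjusted p = 0.0314). On that scale the median log2 fold change over all genes tested was 0.059, so part of the CAT value is a shift shared by all genes. GPX4 was at 601 and 609 TPM against 593 and 586 TPM (log2 fold change -0.10 ± 0.04, adjusted p = 0.0626). The GPX1 groups, 288 and 291 TPM against 300.1 and 327 TPM, gave 0.05 ± 0.05 (adjusted p = 0.596). SOD1 was at 263 and 256 TPM against 258 and 262 TPM, overlapping, and its log2 fold change was -0.06 ± 0.05 (adjusted p = 0.455). SOD2 also overlapped, at 71.0 and 64.2 TPM against 67.2 and 78.1 TPM. GSR was at 56.0 and 56.8 TPM against 60.2 and 62.1 TPM, and its log2 fold change was 0.05 ± 0.05 (adjusted p = 0.546).

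**Figure D1:**
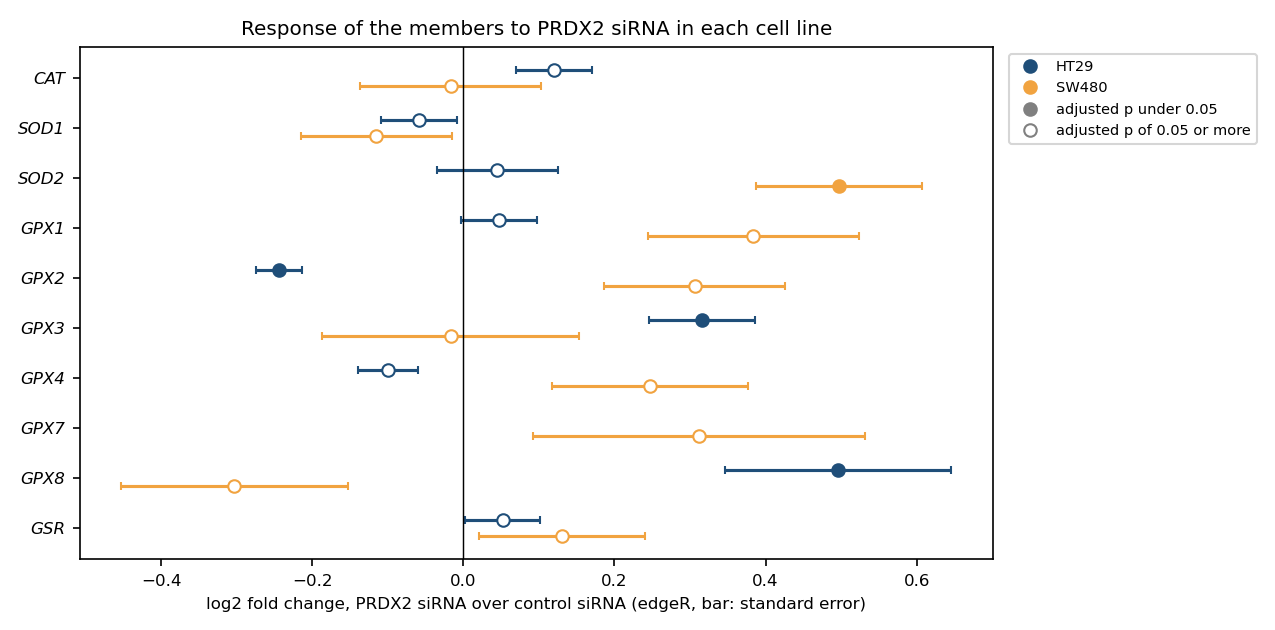
Log2 fold change of each member (PrxII siRNA over control siRNA) in HT29 and SW480 cells, with bars of 1 standard error from edgeR; filled points have an adjusted p under 0.05. In HT29 cells GPX2 (-0.24), GPX3 (0.32) and GPX8 (0.50) are filled, and in SW480 cells SOD2 (0.50) is; GPX7 has no HT29 value.

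In SW480 cells, SOD2 rose and was the only one of the 10 members to pass the test, against 3.3% of the 14112 genes tested (1.22% higher and 2.08% lower). The median log2 fold change was 0.19 over the members and 0.00 over all genes tested. Among all genes called, 36.9% were higher with PrxII siRNA, and 58.9% with limma on TPM and 50.2% after a correction for transcript GC content were. On log2(TPM + 1) with limma the median over all genes tested was 0.085.

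SOD2, the manganese enzyme of mitochondria, was at 105 and 116 TPM in the SW480 controls and at 172 and 173 TPM with PrxII siRNA. Both depleted libraries lay far above both controls, and the duplicates of each group lay close together. The log2 fold change was 0.50 ± 0.11 (adjusted p = 0.045), a 1.41-fold rise. It was 0.57 (adjusted p = 0.000376) with the GC correction, and the adjusted p was 0.0548 when genes with low counts were kept. Without control replicate 1 it was 0.47 (adjusted p = 3.39e-09), and without either PrxII siRNA library it did not pass (adjusted p = 0.585 and 0.68). The ratio of SOD1 to SOD2 (in TPM) was 7.11 and 6.25 in the controls and 4.27 and 4.09 with PrxII siRNA. The SOD1 level was 746 and 725 TPM against 734 and 708 TPM, overlapping between the groups, and the SOD1 log2 fold change was -0.12 ± 0.10 (adjusted p = 0.489).

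GPX1 and GPX4 are among the GC-rich members, with transcript GC content of 62.6% each, and their SW480 values moved with the control library used. GPX1 was at 425 and 560 TPM in the controls and at 647 and 730 TPM with PrxII siRNA, without overlap. Its log2 fold change was 0.38 ± 0.14 (adjusted p = 0.151, and 0.0453 in the fit of all 8 libraries). It was 0.20 (adjusted p = 0.0142) without control replicate 1, 0.59 (adjusted p = 2.69e-11) without control replicate 2 and 0.14 (adjusted p = 0.182) with the GC correction. GPX4, at 435 and 556 TPM against 626 and 622 TPM, had a log2 fold change of 0.25 ± 0.13 (adjusted p = 0.281). For GPX4 the same alternatives gave 0.07, 0.44 and -0.001.

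GPX2 was at 79.0 and 78.5 TPM in the SW480 controls and at 101 and 106 TPM with PrxII siRNA. The duplicates were close and the groups did not overlap, yet the log2 fold change of 0.31 ± 0.12 did not pass (adjusted p = 0.17, and 0.0507 with the GC correction). In the fit of all 8 libraries GPX2 did pass (adjusted p = 0.0249). GPX2 stayed within 0.27 to 0.34 when single libraries were left out, and it passed without either control library (adjusted p = 0.00947 and 0.00695). GPX7 had 41 and 41 expected counts in the controls and 53 and 58 with PrxII siRNA (log2 fold change 0.31 ± 0.22, adjusted p = 0.4).

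GPX8, whose transcript has 40.3% GC, was at 32.9 and 25.0 TPM in the SW480 controls and at 24.9 TPM in both depleted libraries. Control replicate 1 alone stood high. The log2 fold change was -0.30 ± 0.15 (adjusted p = 0.243), and -0.10 without that library. Without control replicate 2 it was -0.49 (adjusted p = 4.4e-06). GPX3, at 25.8 and 34.5 TPM against 31.9 and 31.6 TPM, overlapped, with log2 fold changes of -0.22 without control replicate 1 and 0.22 without control replicate 2. CAT was at 56.2 and 58.0 TPM against 61.0 and 59.0 TPM (log2 fold change -0.02 ± 0.12, adjusted p = 0.942, positive at 0.09 with the GC correction). GSR was at 52.1 and 55.0 TPM against 60.2 and 64.6 TPM, and its log2 fold change was 0.13 ± 0.11 (adjusted p = 0.497).

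**Figure D2:**
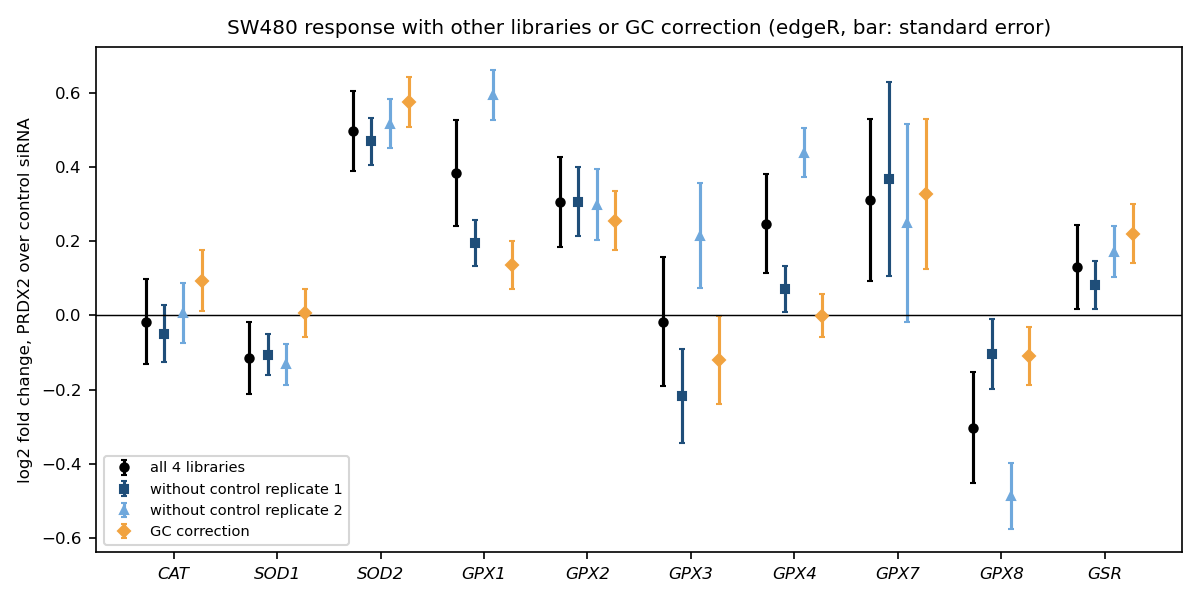
Log2 fold change of each member in SW480 cells (PrxII siRNA over control siRNA) from all 4 libraries, without control replicate 1, without control replicate 2 and with the GC correction, with bars of 1 standard error from edgeR. SOD2 stays between 0.47 and 0.57 in these fits, while GPX1 runs from 0.14 to 0.59 and GPX4 from -0.001 to 0.44.

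The difference of the PrxII siRNA effect between the lines was tested as an interaction term in all 8 libraries (HT29 log2 fold change minus SW480 log2 fold change). GPX2 was the only one of 9 members to pass, against 1.12% of the 14772 genes tested (0.616% with a positive and 0.508% with a negative difference). The GPX2 difference was -0.55 ± 0.10 (SE, adjusted p = 0.0347), with GPX2 lower after depletion in 2 of 2 HT29 libraries and higher in 2 of 2 SW480 libraries. It passed in all 8 other settings that kept every library. With 1 library left out, it passed in 2 of 8 fits, those without an SW480 control library, and the difference lay between -0.585 and -0.515. GPX8 differed by 0.80 ± 0.22 (adjusted p = 0.0992), and by 0.60 (adjusted p = 0.0249) with the GC correction. SOD2, called in SW480 cells alone, differed by -0.45 ± 0.14 (adjusted p = 0.137), and by -0.57 (adjusted p = 0.00887) with that correction. For GPX3, called in HT29 cells alone, the difference was 0.34 ± 0.20 (adjusted p = 0.375), so a difference between the lines was not shown for GPX3. PRDX2 also differed, by 0.84 ± 0.12 (adjusted p = 0.0128), with the smaller decrease in HT29 cells, and the part of unequal knockdown in the GPX2 difference was not tested.

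The summed GPX level was 1879 and 1949 TPM in HT29 controls and 1827 and 1852 TPM with PrxII siRNA, lower in both depleted libraries than in both controls. In SW480 cells it was 1007 and 1262 TPM against 1442 and 1526 TPM, where control replicate 1 was the lowest library. The ratio of GPX2 to GPX1 was 3.18 and 3.29 in HT29 controls and 2.75 and 2.54 with PrxII siRNA, and 0.186 and 0.140 against 0.156 and 0.146 in SW480 cells, where the groups overlapped.

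The genes that supply these enzymes were taken as lists, and their HT29 counts are to be read against the 17.6% of all genes called there (7.76% higher and 9.82% lower). Of 9 tested genes of glutathione synthesis and turnover, 5 rose and 1 fell in HT29 cells, with a median log2 fold change of 0.36 against 0.00 over all genes tested. With DESeq2 4 rose and 0 fell, and in the fit of all 8 libraries CHAC1 and SLC7A11 alone passed. CHAC1, which degrades glutathione, was at 116 and 124 TPM in the HT29 controls and at 198 and 208 TPM with PrxII siRNA (log2 fold change 0.69 ± 0.05, adjusted p = 5.36e-08). SLC7A11, the cystine transporter that provides cysteine for glutathione, was at 45.7 and 43.1 TPM against 64.9 and 63.1 TPM (0.46 ± 0.04 on the log2 scale, adjusted p = 1.64e-07). GGT1, which breaks down extracellular glutathione, fell from 12.3 and 15.1 TPM to 10.5 and 9.14 TPM (log2 fold change -0.55 ± 0.14, adjusted p = 0.013). GGT1 did not pass with DESeq2, limma or all 8 libraries, nor without control replicate 2 or PrxII siRNA replicate 2.

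In SW480 cells 0 of 10 genes of glutathione synthesis and turnover passed in the reported edgeR fit. At an unadjusted p under 0.05 were 8 of them, against 3447 of the 14112 genes tested. The median log2 fold change of the list was 0.35 against 0.00 over all genes tested. DESeq2 and limma also called 0 of the 10. The log2 fold changes were 0.76 ± 0.24 for CHAC1 (adjusted p = 0.108), 0.53 ± 0.19 for SLC7A11 (adjusted p = 0.138) and -1.30 ± 0.35 for GGT1 (adjusted p = 0.0776). In the fit of all 8 libraries 5 rose and GGT1 fell, where 1075 of 14772 genes were higher and 1340 lower. With the GC correction 3 rose (GCLC, GSS and SLC7A11, named after their values were seen) and GGT1 fell, where 2184 of 12419 genes passed. The median of the list was 0.22 without control replicate 1 and 0.43 without control replicate 2. With every library kept, none of the genes of this list passed a test of a difference between the lines in any setting, with 0 at an unadjusted p under 0.05 in edgeR and 3 with the GC correction. SLC3A2 passed without SW480 control replicate 1 and GGCT without SW480 control replicate 2, both named after their values were seen.

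Of the 9 genes of NADPH supply, which GSR depends on, 2 rose and 3 fell in HT29 cells (median -0.06 on the log2 scale). NNT, a mitochondrial NADPH source, was at 37.8 and 37.9 TPM in the controls and 46.6 and 43.8 TPM with PrxII siRNA (log2 fold change 0.19 ± 0.05, adjusted p = 0.0148). PGD, of the pentose phosphate pathway, had 0.16 ± 0.04 (adjusted p = 0.0171). The isocitrate dehydrogenases IDH1 (-0.23 ± 0.04, adjusted p = 0.000619) and IDH2 (-0.16 ± 0.04, adjusted p = 0.00984) fell. With DESeq2 IDH1 alone passed, and with all 8 libraries none of the 9 did (1 at an unadjusted p under 0.05). In SW480 cells none of the 9 passed in the reported edgeR fit (median 0.15). At an unadjusted p under 0.05 were 3 of them, against 3447 of the 14112 genes tested. DESeq2 called IDH1 lower, where 686 of 14112 genes passed. With the GC correction 2 were higher and 1 was lower, where 2184 of 12419 genes passed. In the fit of all 8 libraries 1 was higher and 1 lower, where 2415 of 14772 genes passed. The median was 0.01 without control replicate 1 and 0.3 without control replicate 2.

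Selenium handling bears on GPX1 to GPX4, whose TGA codon needs a dedicated machinery. Of 9 genes of selenoprotein synthesis 1 rose in HT29 cells, EEFSEC, the elongation factor for selenocysteine (0.30 ± 0.10 on the log2 scale, adjusted p = 0.0392), with a median of 0.00. EEFSEC did not pass with DESeq2, without a filter, with all 8 libraries or in 3 of the 4 fits that left out a library, of which the one without control replicate 1 kept it. Of 14 tested other selenoprotein genes 3 rose and none fell (median 0.07), among them SEPW1 at 270 and 248 TPM against 323 and 340 TPM (log2 fold change 0.29 ± 0.05, adjusted p = 0.001) and the thioredoxin reductase TXNRD1 (0.19 ± 0.03, adjusted p = 6.84e-05). SEPW1 and TXNRD1 passed with DESeq2 and in each fit without a library, and none of the list did with all 8 libraries (2 at an unadjusted p under 0.05). VIMP, named after its values were seen, did not pass with DESeq2 or in any fit without a library. In SW480 cells none of the 9 and none of the 15 tested passed in the reported edgeR fit or with DESeq2, with medians of 0.09 and 0.06. At an unadjusted p under 0.05 in that edgeR fit were 1 and 3, against 3447 of the 14112 genes tested. In the fit of all 8 libraries 1 of the 9 was lower and 2 of the 15 were higher, where 2415 of 14772 genes passed. With the GC correction only 4 of the 15 were tested, and of these TXNRD1 was higher, where 2184 of 12419 genes passed. The replicate block called 1 of the 15 higher, where 1727 of 14112 genes passed.

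Of 5 partners of the enzymes, such as the copper chaperone of SOD1 and factors of peroxisomal import, PEX14 rose in HT29 cells (0.27 ± 0.09 on the log2 scale, adjusted p = 0.0442). The medians of the 5 were 0.06 in HT29 and 0.24 in SW480 cells. PEX14 did not pass without a filter, with DESeq2, with all 8 libraries or without control replicate 2 or either PrxII siRNA library. Of 11 glutathione transferases GSTO1 fell in HT29 cells (-0.17 ± 0.05 on the log2 scale, adjusted p = 0.0189), with medians of -0.05 and -0.18. GSTO1 did not pass with DESeq2, limma or all 8 libraries, nor without control replicate 2 or PrxII siRNA replicate 1. None of either list passed in SW480 cells in the reported edgeR fit or with DESeq2. In that edgeR fit 1 gene of each had an unadjusted p under 0.05, against 3447 of the 14112 genes tested. In the fit of all 8 libraries 1 of the 5 was higher and 1 of the 11 lower, where 2415 of 14772 genes passed. With the GC correction 1 of the 5 was higher, and 1 of the 11 was higher and 1 lower, where 2184 of 12419 genes passed. Of the remaining family genes SOD3, GPX5 and GPX6, SOD3 alone was tested in HT29 cells (-0.33 ± 0.29 on the log2 scale, adjusted p = 0.486) and none in SW480 cells.

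**Figure D3:**
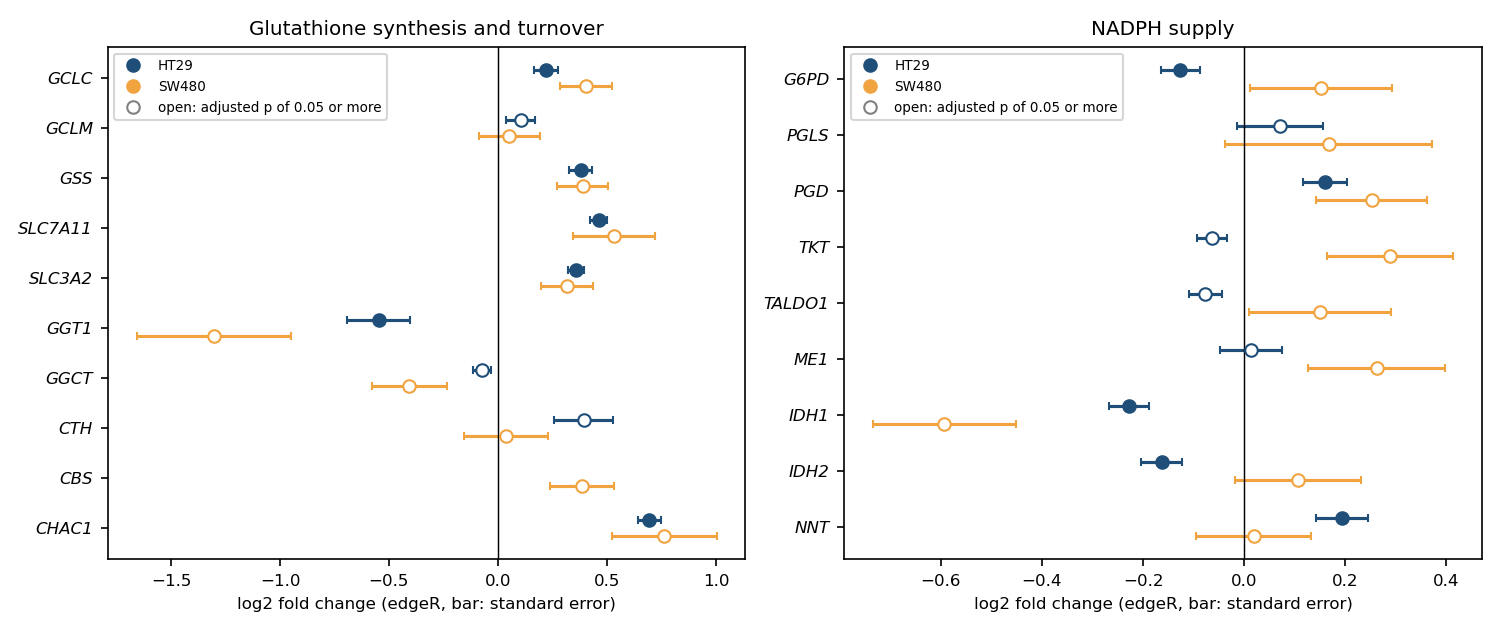
Log2 fold change (PrxII siRNA over control siRNA, with bars of 1 standard error from edgeR) of the tested genes of glutathione synthesis and turnover and of NADPH supply in HT29 and SW480 cells, filled where the adjusted p is under 0.05. In HT29 cells 5 genes of the first list are filled above 0 and GGT1 below it, and no SW480 point is filled.

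With control siRNA, the counts of the lists are to be read against the 67.5% of all genes that differed between the lines (31.8% higher and 35.7% lower in HT29 cells). In HT29 cells 8 of 9 NADPH supply genes were higher and none lower than in SW480 cells (median log2 difference 0.88). The counts of higher and lower genes were 5 and 3 of 10 for glutathione synthesis and turnover (median 0.49), 6 and 1 of 9 for selenoprotein synthesis (0.55) and 5 and 6 of 15 for other selenoproteins (-0.06). They were 1 and 1 of 5 for the partners (-0.11) and 6 and 3 of 11 for the transferases (0.58), and SOD3 was higher (4.03). The median over all genes tested was -0.04, and -0.15 on the TPM scale with limma.

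For each member, the gene with the most similar log2(TPM + 1) pattern over the 8 libraries was SEMA4G for GPX2 (Pearson's r = 0.9997), FADS1 for SOD1 (0.9997), IER5 for GPX7 (0.9996), AFF1 for CAT (0.9994), TMEM147 for GPX1 (0.9992) and MLLT11 for GPX8 (0.9984). It was PTGFRN for SOD2 (0.9954), ZSCAN2 for GPX3 (0.9951), DMPK for GPX4 (0.993) and BNIP1 for GSR (0.9834). These values are a description over 8 points that fall into 2 lines, and the levels of 8 members do not overlap between the lines, while those of GPX4 and GSR do.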

How the data were processed

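Messenger RNA of 8 libraries was measured, 2 in each of 4 groups set by the sample labels. The authors used MapSplice to align the paired reads to hg19 and RSEM to estimate gene levels, and deposited an expected count for each gene in each library. They also deposited TPM and FPKM values, which RSEM scales by effective transcript length. In the deposited length columns (other values), length exceeded effective length by 51.7 to 59.3 bases; the RSEM setting behind this is not given in the sources used here, and TPM levels and shares between genes rest on it. Groups were compared on expected counts rounded to whole numbers (96.8% were whole within 0.005) with edgeR 4.0.16 (glmQLFTest, TMM, Benjamini-Hochberg, threshold 0.05), keeping genes that reached 10 counts in 2 or more of the libraries fitted. Alternatives were RLE, no filter, DESeq2 1.42.0, limma 3.58.1 with a trend on log2(TPM + 1) and log2(TPM + 0.1), a replicate block, a GC correction (loess, span 0.5), all 8 libraries and leaving out each library. GC content was known for 82.3% of symbols, so corrected fits held fewer genes.

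The members and gene lists were chosen with earlier results of these data known. The genes named are the 10 members, PRDX2, in each list and line up to 2 rises and 2 falls with the largest absolute log2 fold change among genes called, and the gene most like each member. The code was tested on simulated counts. At the depths here, 3 counts are 0.295 to 0.339 CPM. Pairs of 2 against 2 libraries allow no exact permutation p under 0.333.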

Additional observations from a re-analysis of the deposited data

Results flagged for a closer look

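GPX2 responded differently to PrxII siRNA in the 2 lines. The HT29 log2 fold change minus the SW480 log2 fold change was -0.55 ± 0.10 (SE, adjusted p = 0.0347, edgeR's quasi-likelihood interaction test with Benjamini-Hochberg adjustment). GPX2 was lower in 2 of 2 depleted HT29 libraries and higher in 2 of 2 depleted SW480 libraries.

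The knockdown of PRDX2 itself also differed, by 0.84 ± 0.12 (adjusted p = 0.0128, same test). PRDX2 levels fell in 2 of 2 libraries of both lines, and further in SW480 cells. Without an HT29 library or an SW480 PrxII siRNA library, neither difference passed the test.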

How the results depend on the processing

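Among the log2 fold changes of the members and PRDX2 under alternatives that kept every library, 308 kept the direction and the side of the threshold, 15 passed only under the alternative, 7 passed only in the reported fit and 16 changed sign. All 16 were of members that did not pass: in HT29 cells SOD1 with limma (0.005 at both pseudocounts), in SW480 cells CAT with limma (0.071 and 0.072), with the GC correction (0.094) and with the replicate block and GC correction (0.096), SOD1 in the latter fits (0.007 and 0.008), GPX3 with limma (0.088 and 0.091) and GPX4 in the GC fits (-0.001 in both), and in the difference between lines CAT (-0.015 and -0.016) and SOD1 (-0.101 and -0.102) in the GC fits. Leaving out 1 library turned the sign for 4 members, whose values ranged from -0.081 to 0.173 for SOD2 and from -0.018 to 0.117 for GPX1 in HT29 cells, and from -0.049 to 0.007 for CAT and from -0.218 to 0.215 for GPX3 in SW480 cells.

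Of the members, 0 passed with edgeR in HT29 cells with all 8 libraries fitted together, and 0 in SW480 cells without a filter, with 3 members at an unadjusted p under 0.05 in each. In SW480 cells 3 members (SOD2, GPX1 and GPX2) passed with all 8 libraries, and in the difference between lines 3 with the GC correction. Of all genes in HT29 cells, 871 passed with DESeq2 and 185 with all 8 libraries. In SW480 cells 214 and 177 passed with limma at pseudocounts of 1 and 0.1, 2184 with the GC correction and 2415 with all 8 libraries. In the difference, 267 passed without a filter, 311 with DESeq2, 103 and 43 with limma and 931 with the GC correction. By expected counts in place of TPM, GPX2 held 51.2% and 46.7% of the GPX total in HT29 control and depleted cells and 7.67% in depleted SW480 cells, and SOD1 held 72.1%, 70.6%, 81.6% and 74.4% of the SOD total in HT29 control, HT29 depleted, SW480 control and SW480 depleted cells.

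The labels name no batch shared by replicates of the same number. The deviations of libraries with the same number correlated at 0.11 in HT29 and 0.09 in SW480 cells. From 2 libraries per group, these values cannot show whether the replicates were paired. With the replicate block 5 members passed in HT29 cells, with CAT (adjusted p = 0.0485) and GPX4 (adjusted p = 0.0223) added, and in SW480 cells 2 members and 1727 genes passed. With the replicate block and the GC correction, 3 members and 2903 genes passed in SW480 cells, and 3 members and 839 genes in the difference.

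Leaving out each library leaves 1 library in a group, which is then assumed to vary like the others. In HT29 cells 2 to 3 members and 1574 to 2030 genes passed. In SW480 cells 0 to 7 members and 87 to 7364 genes passed, with 3437 genes without control replicate 1, 7364 without control replicate 2, and 105 and 87 without PrxII siRNA replicates 1 and 2. In the difference 0 to 5 members and 6 to 5237 genes passed, and in the comparison of control lines 7 to 9 members and 6905 to 9970 genes. With 2 libraries per group, counts as low as those of GPX7 and of GPX8 in HT29 cells limit what could be detected.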
